A study of Gallus gallus with 5 samples.

Results

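The genes of BMP and TGF-beta signalling were followed through otic placode formation in the chick. The members were every locus whose gene symbol begins with BMP, SMAD, SMURF, ACVR, TGFB, INHB or GDF, together with the ID genes *ID1* to *ID4*, *FST*, *FSTL1*, *NOG*, *CHRD*, *GREM1*, *NBL1*, *BAMBI*, *LTBP1* and *NODAL*. This rule found 54 of 18581 loci, which carry 52 distinct symbols, since *GDF8* and *GDF-9* each stand on more than 1 locus. *ID4* was not found, and *SMAD4*, *TGFB1* and *TGFBR1* are not among the symbols found, so the common-mediator SMAD and the type I TGF-beta receptor were not analysed here. By role the members are 19 ligands, 11 receptors, 7 SMADs, 2 ubiquitin ligases, 9 antagonists or latency proteins and 3 ID targets. The other 3 (*BMP2K*, *TGFBI* and *TGFBRAP1*) match the rule by prefix and were given none of these roles.

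Ligands of this family bind a pair of type I and type II serine/threonine kinase receptors, and the type I receptor phosphorylates a receptor-regulated SMAD, which enters the nucleus with the common-mediator SMAD. BMP ligands act through SMAD1, SMAD5 and SMAD9, whereas TGF-beta, activin and nodal ligands act through SMAD2 and SMAD3. The inhibitory SMADs and the SMURF ligases damp the response, secreted antagonists hold ligands away from receptors, and the ID genes are direct targets of BMP signalling. In the early ectoderm a graded BMP signal helps to separate neural plate, neural plate border and epidermis, and the pre-placodal region arises at that border.

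The embryos were *Gallus gallus* of the Bovans Brown breed, and the labels give no mutant genotype and no treatment for any group. A single polyA RNA library was made for each of 5 conditions: the posterior pre-placodal region (PPR) at stage HH6, otic-epibranchial progenitors (OEPs) at the 5-6 somite stage (5-6ss), the thickened otic placode at 8-9ss, the invaginating otic placode (11-12ss), and whole embryos of 3ss. Each otic library pooled tissue dissected from many embryos after endoderm and mesoderm had been stripped off. The age of the whole embryo lies between that of the PPR and the OEPs, so a comparison with it mixes stage with tissue.

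Total counts ran from 26858887 at 5-6ss to 136916870 in the PPR. The otic marker list, of which 10 of 11 symbols were found, summed to 149 RPKM (reads scaled by locus length and library depth) in the PPR and to between 1559 and 1939 RPKM in the 3 later otic libraries. In the whole embryo it summed to 219 RPKM. *PAX2* stood at 0.451 RPKM in the PPR and at 88.6, 99.7 and 172 RPKM in the later otic libraries. Mesoderm markers summed to between 12.1 and 50.7 RPKM in the otic libraries and to 324 RPKM in the embryo. *TBX6* stood at 0.226 RPKM or less against 117 RPKM, and *MSGN1* at 0.223 RPKM or less against 74.1 RPKM. *TCF15* reached 4.69 against 52.5 RPKM and *TWIST1* 4.70 against 8.71 RPKM. Other markers of the list were less far from the embryo. *FOXC2* lay between 9.08 and 35.6 RPKM in the otic libraries against 62.2 RPKM. *PAX1* was level with the embryo at 11-12ss, at 8.83 against 8.64 RPKM, and at 1.27 RPKM or less in the earlier otic libraries. The endoderm list summed to 35.0, 120.5, 33.7 and 29.6 RPKM along the otic series and to 399 RPKM in the embryo, and the 5-6ss value came mostly from *APOA1* at 70.5 RPKM and *TTR* at 38.2 RPKM, while *SHH* was at 0.30 RPKM.

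A locus was taken as expressed in a library when its RPKM was over 4 and its normalized count over 300, and as higher or lower between libraries when normalized counts differed more than 1.5-fold and the higher library passed both levels. These are the thresholds of the study. With 1 library in each condition there is no replicate check and no p-value, and the interval given after a fold change is the exact Clopper-Pearson 95% range of the 2 counts. It covers counting error alone, and PCR copies were not told apart. In tissue libraries such as these, fewer cells expressing a gene and less RNA per cell cannot be told apart.

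Of the 54 members, 36 were expressed in at least 1 library, 23 in every library, 13 in 1 to 4 libraries and 18 in none. The expressed members were 6 of 19 ligands, 9 of 11 receptors, all 7 SMADs, both ubiquitin ligases, 7 of 9 antagonists or latency proteins, all 3 ID genes and 2 of the 3 genes that share a prefix. Members took 0.182% of all counts in the PPR, 0.140% at 5-6ss, 0.141% at 8-9ss, 0.171% at 11-12ss and 0.243% in the whole embryo. In what follows, RPKM values stand in the order PPR, 5-6ss, 8-9ss, 11-12ss and whole embryo unless another order is named.

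**Figure D1:**
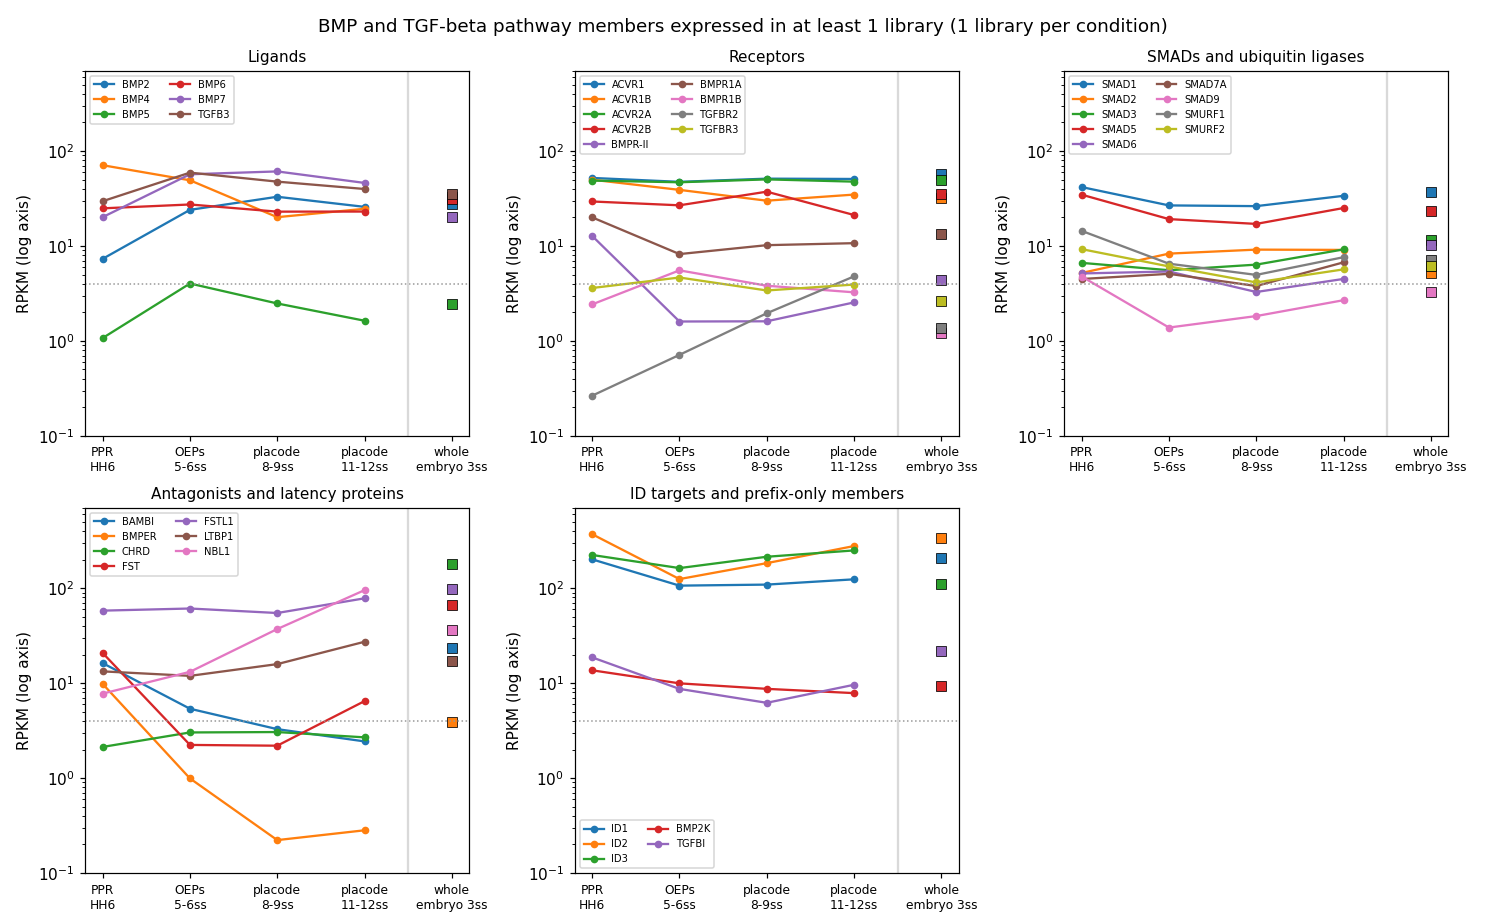
RPKM of the 36 members expressed in at least 1 library, on a log axis, grouped by role. Circles joined by lines are the 4 otic libraries in order of stage, squares are the 3ss whole embryo, and the dotted line is the level of 4 RPKM. *NBL1* climbs from 7.77 to 95.5 RPKM, *BMPER* drops from 9.82 to below 1 RPKM, and *CHRD* stays near 2 to 3 RPKM against 179.6 RPKM in the embryo.

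The first question was how the pathway changed from one otic stage to the next. Between the PPR and the OEPs, 8 of 34 expressed members (23.5%) were higher and 13 (38.2%) were lower at 5-6ss. Among all 9253 loci expressed in either library, 18% were higher and 18.9% lower. The median log2 fold change over the 49 members with enough counts (a mean normalized count of at least 10) was -0.19, beside -0.0021 over all 14054 such loci. Between 5-6ss and 8-9ss 1 of 29 members was higher and 3 were lower, where 3.89% and 4.99% of all loci were called. Between 8-9ss and 11-12ss 8 of 27 members (29.6%) were higher and 1 (3.70%) was lower, against 6.54% and 3.63% of all loci, and the median was 0.25 over 45 members. Higher and lower together, 21 members were called in the first step, 4 in the second and 9 in the third. Some of these directions were set by the filter, which applied to all loci alike. At the first step *BMP2*, *BMP5*, *BMPR1B* and *SMAD7A* passed both expression levels only at 5-6ss, so they could not be called lower. *SMAD9*, *BMPER*, *FST* and *BMPR-II* passed only in the PPR, so they could not be called higher. *SMAD6* and *BAMBI* passed only at 5-6ss at the second step, and *FST* and *TGFBR2* only at 11-12ss at the third.

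**Figure D2:**
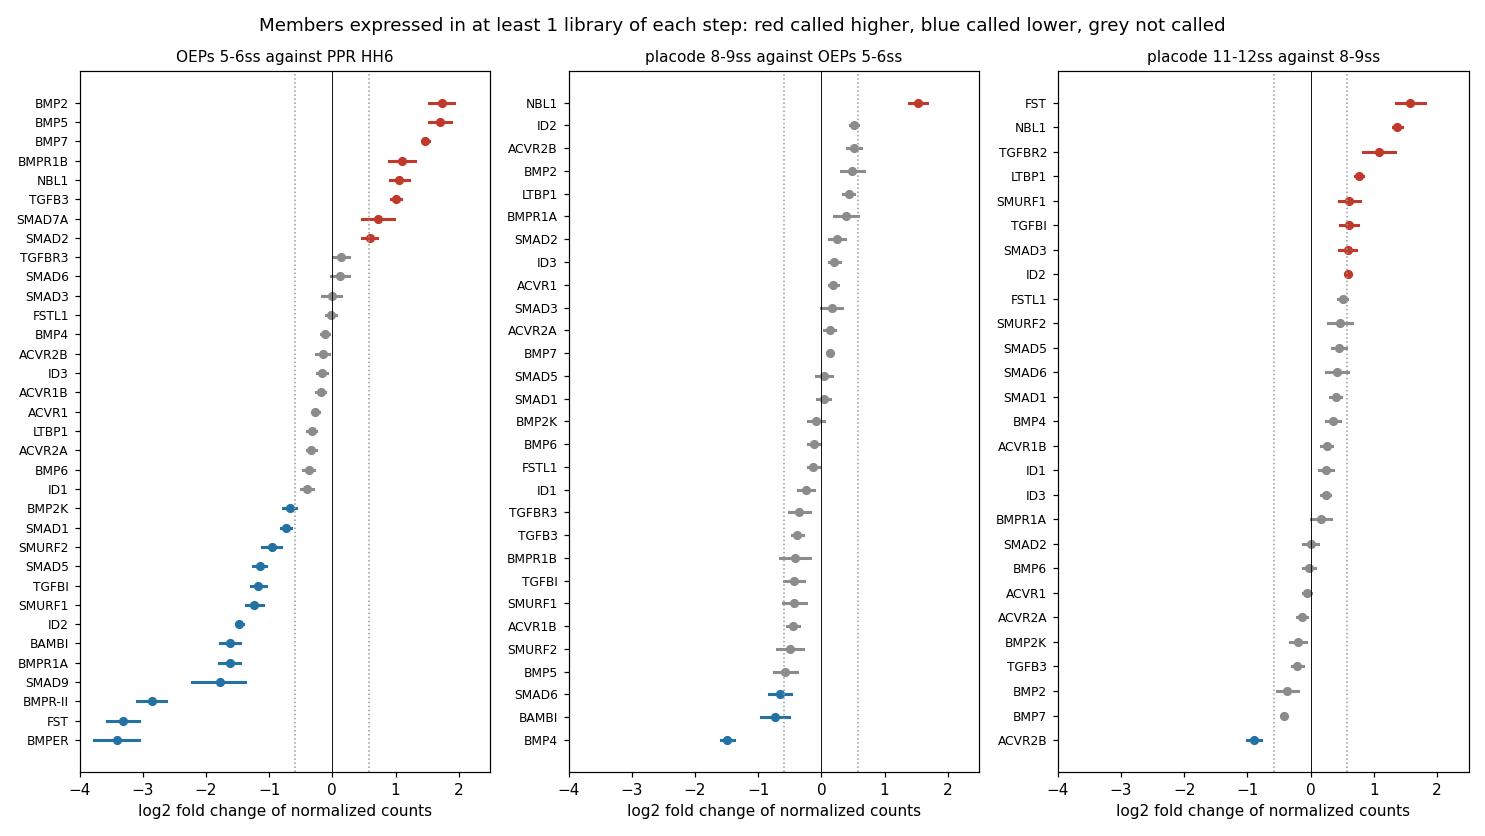
Log2 fold change of normalized counts for each expressed member at the 3 steps between consecutive otic stages, with bars for the 95% counting interval (1 library per condition). Red is higher, blue is lower and grey is not called, and dotted lines mark 1.5-fold. The first panel spreads from *BMPER* at -3.41 to *BMP2* at 1.73, while the second holds only 4 called members and the third 8 higher and 1 lower.

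Of the 6 ligand genes expressed at the step to the OEPs, 4 were higher and none was lower, where 18% and 18.9% of all loci were called. Within this pair *BMP2* and *BMP5* passed both expression levels only at 5-6ss, so neither could be called lower. *BMP2*, a BMP ligand, stood at 7.31, 24.0, 32.9, 25.8 and 27.9 RPKM. Its level in the PPR was therefore the lowest of all 5 libraries, and the 3 later otic libraries lay around the level of the embryo. At 5-6ss it was 3.32-fold higher than in the PPR (2.89 to 3.80, from 348 and 548 counts).

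*BMP7*, a ligand of the subgroup that also holds *BMP5* and *BMP6*, stood at 20.1, 56.9, 60.9, 46.1 and 20.0 RPKM. The PPR and the embryo were thus level and the 3 later otic libraries stood above both. The gain at 5-6ss was 2.78-fold (2.68 to 2.87). Its relative *BMP5* peaked at the same stage, with 1.07, 4.02, 2.48, 1.63 and 2.43 RPKM, and was 3.26-fold higher there (2.90 to 3.65). That peak only just reached the expression level of 4 RPKM, so *BMP5* was a weakly expressed ligand in all libraries.

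*TGFB3*, the only TGF-beta ligand gene that was expressed, stood at 29.6, 59.2, 47.6, 39.8 and 34.9 RPKM. It was 2.01-fold higher at 5-6ss than in the PPR (1.91 to 2.12) and then became lower stage by stage without passing 1.5-fold in a single step. *TGFB2* stayed between 1.59 and 3.23 RPKM and was not expressed by the thresholds. The endoderm markers *TTR* and *APOA1* also stood higher in the 5-6ss library than in the PPR, with *TTR* at 0.793 RPKM and *APOA1* at 18.7 RPKM in the latter. Their part in the ligand values was not tested.

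*BMP4*, which marks the neural plate border and non-neural ectoderm in the early chick, went the other way. It stood at 70.8, 49.1, 20.1, 24.6 and 32.4 RPKM, the highest ligand level of the series in the PPR. By counts the PPR and 5-6ss differed by only 1.08-fold, and the drop fell at the next step, where *BMP4* was 2.81-fold lower at 8-9ss (2.62 to 3.02, from 1227 and 2260 counts). By deposited RPKM the first step was larger, 1.44-fold lower, and the second 2.44-fold lower. *BMP6* was even across the libraries, between 23.0 and 31.5 RPKM, and was called in none of the 7 comparisons.

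The order of the ligands therefore changed with stage. On RPKM, *BMP4* led in the PPR, *TGFB3* and *BMP7* led at 5-6ss with *BMP4* behind them, and *BMP7* led at 8-9ss and 11-12ss. The values at 5-6ss for *TGFB3* (59.2 RPKM) and *BMP7* (56.9 RPKM) differ by less than 1.5-fold and have no replicate to separate them.

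The other 13 ligand loci were not expressed in any library. *BMP3*, a BMP that antagonises other BMPs, had its highest value in the OEPs at 2.51 RPKM, from 0.580 RPKM in the PPR. It stood at 0.351 RPKM by 11-12ss. *INHBB*, which encodes an activin subunit, had 0.606 and 0.353 RPKM in the PPR and at 5-6ss and then 3.06 and 2.72 RPKM, from 43, 5, 68 and 55 counts. *NODAL*, the ligand that patterns the left side of the body and the germ layers, reached 5.99 RPKM in the whole embryo from 153 counts and at most 1.38 RPKM in an otic library. The remaining loci (*BMP-10*, *BMP15*, *GDF5*, *GDF10*, *INHBA*, *TGFB2* and both copies of *GDF8* and *GDF-9*) stayed at 3.23 RPKM or less. The copies of *GDF-9* had nearly the same counts, 23 and 25 in the PPR, so their reads are uncertain.

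Receptor genes split into a steady set and a changing set. The steady set held *ACVR1*, a type I receptor for BMPs, between 47.3 and 57.4 RPKM, and the type II receptor *ACVR2A* between 46.8 and 50.2 RPKM. Neither was called in any comparison. *ACVR1B*, a type I receptor for activin and nodal, stood at 49.9, 38.9, 29.96, 34.7 and 32.3 RPKM and was not called either. On RPKM these were among the most abundant receptor genes in every library.

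*BMPR-II*, the type II receptor dedicated to BMPs, showed the largest receptor change called at a single step. It stood at 12.7, 1.60, 1.61, 2.54 and 4.37 RPKM, so that the PPR lay above every other library and the 3 later otic libraries lay below the embryo. At 5-6ss it was 7.25-fold lower than in the PPR (6.19 to 8.54, from 159 and 6019 counts). Of this pair only the PPR passed the expression levels, so *BMPR-II* could not be called higher. The type I BMP receptor *BMPR1A* was lower at the same step, with 20.0, 8.21, 10.2, 10.7 and 13.4 RPKM and a 3.08-fold difference (2.76 to 3.45).

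*BMPR1B*, the other BMP type I receptor, changed in the opposite direction. It stood at 2.42, 5.53, 3.81, 3.25 and 1.20 RPKM and was 2.15-fold higher at 5-6ss than in the PPR (1.86 to 2.47, from 280 and 680 counts). Each of the 4 otic libraries lay above the embryo. On RPKM *BMPR1A* remained above *BMPR1B* in every library, by 20.0 against 2.42 RPKM in the PPR and by 8.21 against 5.53 RPKM at 5-6ss. The call of *BMPR1B* was lost when all libraries were thinned to the depth of the smallest.

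*TGFBR2*, the type II receptor for TGF-beta ligands, climbed through the otic series, with 0.265, 0.712, 1.95, 4.78 and 1.36 RPKM. It passed the expression level only at 11-12ss, a gain of 2.12-fold over 8-9ss (1.78 to 2.53, from 373 and 198 counts). That call was lost in thinned counts. The summed level of the 7 blood and vessel markers found (of 13) was 3.13, 14.7, 17.8 and 29.6 RPKM along the otic series and 35.3 RPKM in the embryo. Of these markers 1 was expressed at 8-9ss and 2 at 11-12ss. *LMO2* stood at 0.637, 8.37, 9.65 and 15.8 RPKM along the otic series, and *CDH5*, an endothelial cadherin, at 0.0852, 0.612, 1.63 and 3.18 RPKM. *HBE* did not climb and lay between 1.61 and 2.01 RPKM in the otic libraries, and *HBAD* and *RUNX1* stayed below 1 RPKM in every library. The part of blood and vessel cells in the *TGFBR2* values was not tested.

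*ACVR2B*, a type II receptor for activin-like ligands, was the only member lower at the last step. It stood at 29.4, 26.8, 37.3, 21.2 and 35.7 RPKM and was 1.85-fold lower at 11-12ss than at 8-9ss (1.72 to 1.997). The peak at 8-9ss was 1.43-fold above 5-6ss, short of the threshold. *TGFBR3*, the co-receptor betaglycan, lay between 2.66 and 4.65 RPKM and passed the expression level only at 5-6ss. *ACVRL1*, the endothelial type I receptor, was not expressed but had its highest value, 1.64 RPKM, at 11-12ss. *ACVR1C* had 302 to 439 counts and 0.320 to 0.600 RPKM, which leaves it under the RPKM level in every library.

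Each of the 3 BMP-branch SMADs was lower at 5-6ss, as were 18.9% of all loci at that step. *SMAD9* passed the expression levels only in the PPR, so it could not be called higher. *SMAD1* stood at 41.7, 26.7, 26.3, 33.7 and 36.8 RPKM and was 1.66-fold lower than in the PPR (1.57 to 1.76). *SMAD5* stood at 34.7, 19.2, 17.1, 25.1 and 23.1 RPKM and was 2.21-fold lower (2.06 to 2.38). For both, the PPR was the highest otic library, 5-6ss and 8-9ss were the lowest, and 11-12ss lay between.

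*SMAD9*, the least abundant of that branch, stood at 4.76, 1.38, 1.82, 2.68 and 3.23 RPKM. It was expressed in the PPR alone and was 3.45-fold lower at 5-6ss (2.60 to 4.67, from 51 and 918 counts), although the call did not survive thinning. On RPKM the order *SMAD1*, *SMAD5*, *SMAD9* was kept in all 5 libraries.

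Of the TGF-beta and activin branch, *SMAD2* was higher in the OEPs. It stood at 5.19, 8.30, 9.14, 9.08 and 5.12 RPKM, so that the 3 later otic libraries stood above the PPR and the embryo. The gain of 1.51-fold lies at the threshold (1.39 to 1.64), and its call was lost in 4 of the 11 alternatives, TMM and total count scaling among them. *SMAD3* did not differ at that step (1.01-fold lower, 0.913 to 1.12) and was higher at 11-12ss. Its values of 6.63, 5.55, 6.35, 9.19 and 11.4 RPKM put the embryo highest, and the 1.51-fold gain of the last step (1.37 to 1.65) was lost with deposited RPKM.

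Among the inhibitory SMADs, *SMAD6* stood at 5.13, 5.38, 3.27, 4.49 and 10.1 RPKM and was 1.57-fold lower at 8-9ss than at 5-6ss (1.39 to 1.78). *SMAD7A*, the symbol that the files give for the other one, stood at 4.48, 5.08, 3.78, 6.71 and 6.14 RPKM. Its 1.66-fold gain at 5-6ss (1.39 to 1.97) rests on 176 and 555 counts and was not seen in deposited RPKM, where the gain was 1.13-fold. *SMAD6* and *SMAD3* lie next to each other in the RefSeq order, as do *SMAD5* and *TGFBI* and *ACVR1B* and *ACVRL1*. No strand setting is stated for the counting, so reads from any overlap of such neighbours cannot be told apart.

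Both SMURF ligases, which mark SMADs and receptors for degradation, were lower in the OEPs, as were 18.9% of all loci. *SMURF1* stood at 14.4, 6.499, 4.95, 7.61 and 7.16 RPKM, a 2.35-fold drop at the first step (2.14 to 2.58) followed by a 1.53-fold gain at the last (1.37 to 1.71). *SMURF2* stood at 9.25, 6.08, 4.12, 5.66 and 6.07 RPKM and was 1.94-fold lower at the first step (1.75 to 2.17). For both ligases the PPR was the highest and 8-9ss the lowest of all 5 libraries. The last gain of *SMURF1* was not called when the interval had to lie wholly past 1.5-fold or after correction for locus length.

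The secreted and membrane inhibitors held the largest single changes. *BMPER*, a secreted BMP-binding protein, stood at 9.82, 0.993, 0.222, 0.282 and 3.91 RPKM. Only the PPR passed the expression level, and the value at 5-6ss was 10.6-fold lower (8.33 to 13.7, from 67 and 3709 counts). *FST*, which encodes the activin-binding protein follistatin, stood at 20.8, 2.24, 2.20, 6.47 and 65.8 RPKM. It was 9.91-fold lower at 5-6ss (8.34 to 11.9, from 131 and 6777 counts) and 2.99-fold higher again at 11-12ss than at 8-9ss (2.55 to 3.52). Even so, each otic library lay below the embryo. At 5-6ss and 8-9ss *FST* was under the expression level, so neither step could have been called in the other direction.

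*BAMBI*, a membrane pseudoreceptor without a kinase domain, declined at each stage, with 16.3, 5.38, 3.28, 2.44 and 23.3 RPKM. It was 3.06-fold lower at 5-6ss than in the PPR (2.75 to 3.42) and a further 1.66-fold lower at 8-9ss (1.42 to 1.93). By 11-12ss 205 counts were left and the gene was under the expression level.

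*NBL1*, a secreted BMP antagonist of the DAN family, was the only member that was called at all 3 steps, each time higher. It stood at 7.77, 13.2, 37.2, 95.5 and 36.1 RPKM. The gain over the preceding stage was 2.09-fold in the OEPs (1.88 to 2.31), 2.89-fold in the thickened placode (2.63 to 3.18) and 2.59-fold in the invaginating placode (2.46 to 2.72). The PPR thus lay far under the embryo, 8-9ss level with it, and 11-12ss far above it. None of these 3 calls was lost under any of the 11 alternatives.

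*LTBP1*, which stores latent TGF-beta in the matrix, stood at 13.3, 11.9, 15.9, 27.3 and 17.3 RPKM and gained 1.70-fold from 8-9ss to 11-12ss (1.63 to 1.77). *FSTL1*, a follistatin-like glycoprotein, stood at 58.1, 61.2, 54.8, 78.3 and 98.1 RPKM and was called at no step. The secreted BMP antagonists *CHRD*, *NOG* and *GREM1* were under the expression level in the otic libraries. *CHRD* stood at 2.13, 3.03, 3.06, 2.69 and 179.6 RPKM, *NOG* at 1.19 to 2.52 RPKM in the otic libraries, and *GREM1* did not exceed 0.635 RPKM in any library. At 11-12ss the summed mesoderm markers stood at 50.7 RPKM against 41.4 RPKM at 8-9ss. *PAX1* stood at 8.83 against 1.004 RPKM, *TWIST1* at 4.70 against 1.47 RPKM and *TCF15* at 4.69 against 3.13 RPKM. *FOXC2*, the highest of the list, was lower, at 32.4 against 35.6 RPKM, and *TBX6*, *MSGN1*, *MYF5* and *UNCX* stayed below 1 RPKM. The part of mesoderm cells in the gains of *FST*, *NBL1*, *LTBP1* and *TGFBR2* was not tested.

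The ID genes encode helix-loop-helix proteins that block bHLH factors, and on RPKM they were the most abundant members in every otic library. *ID2* stood at 371, 125, 184, 278 and 338 RPKM. It was 2.77-fold lower at 5-6ss than in the PPR (2.67 to 2.89), 1.43-fold higher at 8-9ss (1.37 to 1.498) and 1.51-fold higher at 11-12ss (1.46 to 1.56). The middle gain fell short of the threshold, and the last lay just past it with an interval that reaches below it.

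*ID1* stood at 202, 107, 109, 124 and 207 RPKM and *ID3* at 224, 163, 215, 250.3 and 112 RPKM. On RPKM both had their lowest otic value at 5-6ss, whereas by normalized counts *ID1* was lower still at 8-9ss, 1.19-fold below 5-6ss (1.09 to 1.29) and not called. By counts the first step was 1.31-fold lower for *ID1* (1.23 to 1.41) and 1.12-fold lower for *ID3* (1.06 to 1.18), so neither was called. By deposited RPKM the same step was 1.89-fold lower for *ID1*, which passes the threshold, and 1.37-fold lower for *ID3*, which does not. *ID1* was highest in the PPR and the embryo, whereas *ID3* was lowest in the embryo.

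The short ID loci sit where fold changes of the first step moved with locus length. Length was read as the depth-scaled reads that a locus gives per unit of RPKM. Expressed loci were split into 10 equal bins by length. In the bin of shortest loci, up to 0.584 kb, the median log2 fold change from the PPR to 5-6ss was 0.68, and in the bin of longest loci, from 4.74 kb, it was -0.42. At the second step these medians were 0.07 and -0.06, and at the third -0.21 and 0.17. Against the whole embryo they were -0.42 and 0.32 for the PPR and 0.18 and -0.08 for 5-6ss. For 8-9ss they were 0.25 and -0.17, and for 11-12ss 0.04 and 0.02. The authors used reads of different lengths on different instruments, and which library had which was not stated in the sources used here.

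*ID1*, *ID3* and *BMP2* lie in the shortest bin and *BMP5*, *LTBP1* and *TGFBR3* in the longest. Divided by the median of their bin, a correction chosen after the data were seen, the first-step drop of *ID1* was 2.11-fold and that of *ID3* 1.79-fold, and both would be called. The gain of *BMP2* became 2.07-fold, that of *BMP5* 4.35-fold and that of *BMP7* 3.19-fold. *BMP2K* lost its call, with a 1.30-fold drop. All other first-step calls of members were kept.

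**Figure D3:**
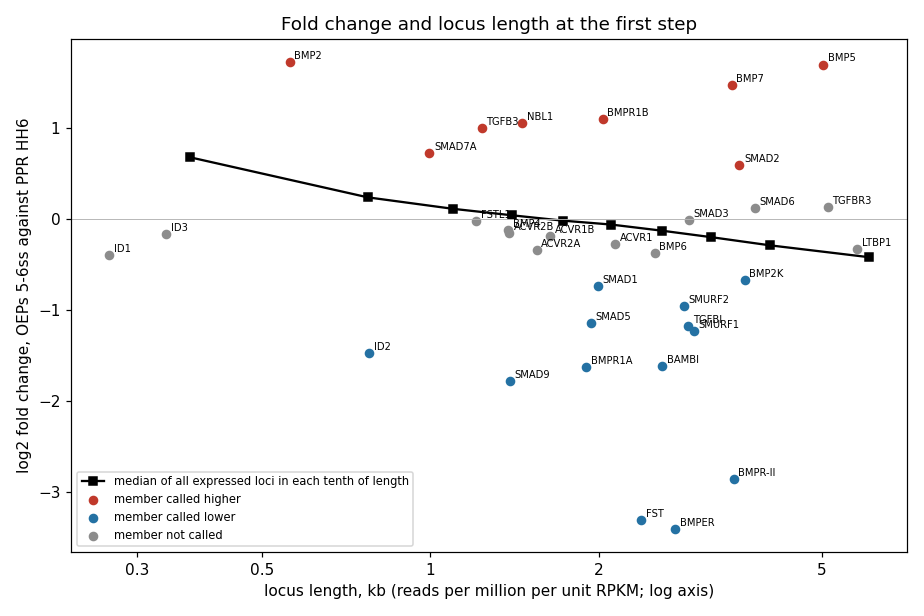
Log2 fold change from the PPR to the OEPs at 5-6ss against locus length in kb (log axis) for the expressed members, 1 library per condition. Black squares are the medians of all expressed loci in each of the 10 length bins, falling from 0.68 to -0.42, and red, blue and grey points are members called higher, lower and not called. *ID1* and *ID3* lie far under the median of short loci, while *BMP5* and *BMP7* lie far above that of long ones.

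Of the genes matched by prefix and given no role, *TGFBI*, a matrix protein induced by TGF-beta, stood at 18.7, 8.71, 6.21, 9.62 and 21.7 RPKM. It was 2.26-fold lower at the first step (2.08 to 2.45) and 1.53-fold higher at the last (1.38 to 1.68), with an interval that reaches below the threshold. *BMP2K*, a kinase first found as induced by BMP2, stood at 13.7, 9.96, 8.72, 7.86 and 9.23 RPKM and was 1.59-fold lower at the first step (1.48 to 1.71). *TGFBRAP1*, a receptor-associated protein, did not exceed 3.08 RPKM.

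The second question was which members distinguished otic tissue from the whole embryo. The 4 comparisons share the embryo library, so any peculiarity of that library enters all of them, and their values are given side by side. In the PPR 10 of 32 expressed members were higher and 7 were lower (21.9%), where 15.7% and 12.9% of all loci were called. At 5-6ss 6 of 32 were higher (18.8%) and 12 lower (37.5%), against 13.9% and 10.2% of all loci. At 8-9ss 3 of 29 were higher (10.3%) and 12 lower (41.4%), against 15% and 13.1%. At 11-12ss 5 of 31 were higher (16.1%) and 7 lower (22.6%), against 14.7% and 12.8%. Some of these directions were set by the filter. *CHRD* passed the expression levels only in the embryo in all 4 comparisons, and *BMPR-II* at the 3 later stages. *FST* did so at 5-6ss and 8-9ss, *BAMBI* at 8-9ss and 11-12ss, and *SMAD6* at 8-9ss. None of them could be called higher there. *SMAD9* and *BMPER* passed only in the PPR, *BMPR1B* and *TGFBR3* only at 5-6ss and *TGFBR2* only at 11-12ss. None of these could be called lower.

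**Figure D4:**
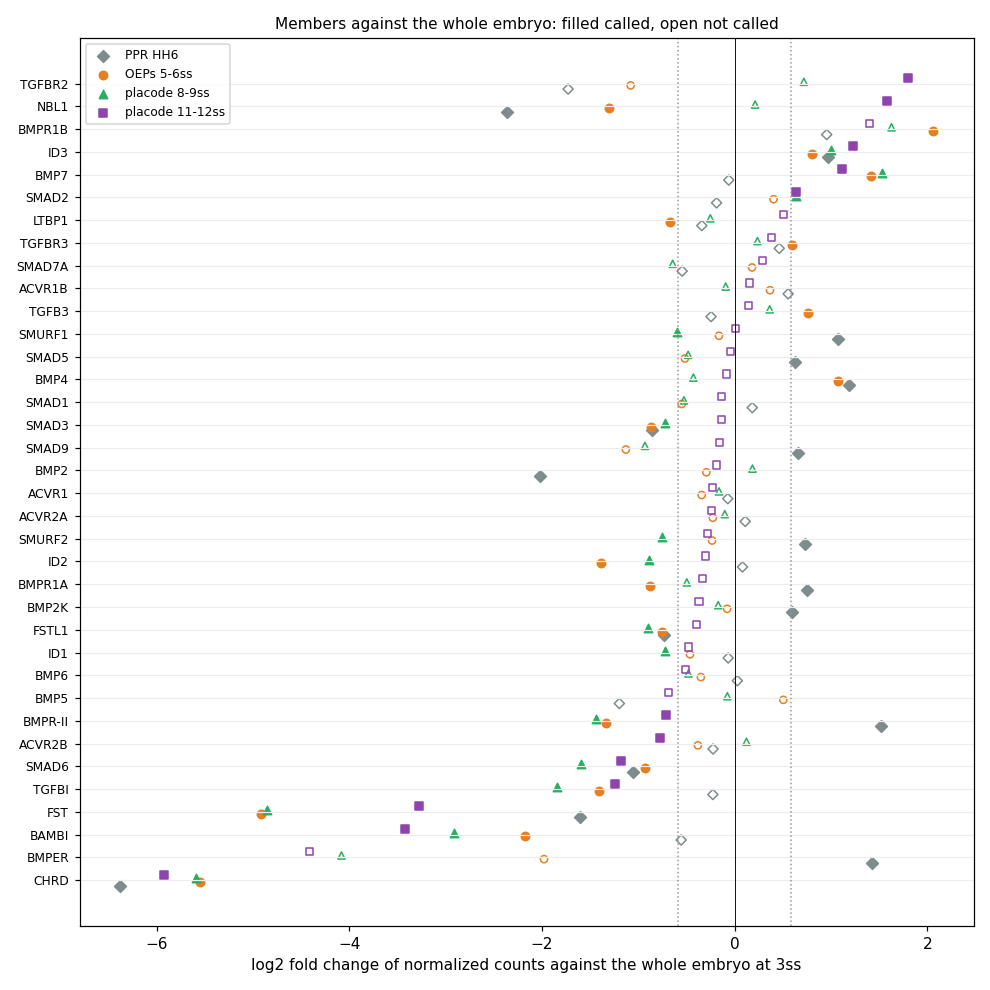
Log2 fold change of normalized counts of each member expressed in at least 1 library against the 3ss whole embryo, for the PPR and the 3 later otic libraries (1 library each, the embryo shared by all). Filled symbols passed the thresholds, open ones did not, and dotted lines mark 1.5-fold. *CHRD* lies between -6.38 and -5.55 in all 4, *BMPR-II* crosses from 1.52 in the PPR to -1.34 at 5-6ss, and *ID3* stays to the right in all 4.

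The antagonists carried the largest differences. *CHRD* was 83.2-fold lower in the PPR (77.6 to 89.3), 46.9-fold lower at 5-6ss, 48.1-fold lower at 8-9ss and 60.6-fold lower at 11-12ss (54.0 to 68.2). In the embryo it was expressed at 179.6 RPKM, a level that among members only *ID1* and *ID2* exceeded there. Chordin is made in the node and notochord. The notochord marker *T* stood at 275 RPKM in the embryo and at 1.65 to 2.23 RPKM in the otic libraries. *SHH*, which is on the endoderm list as well, stood at 9.80 RPKM against 0.425 RPKM or less. The part of notochord cells in the *CHRD* values was not tested.

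*FST* was 3.05-fold lower in the PPR (2.95 to 3.16), 30.3-fold lower at 5-6ss (25.5 to 36.3), 28.9-fold lower at 8-9ss and 9.72-fold lower at 11-12ss (8.92 to 10.6). *BAMBI* was 4.51-fold lower at 5-6ss, 7.53-fold lower at 8-9ss and 10.7-fold lower at 11-12ss (9.31 to 12.4). *BAMBI* in the PPR lay only 1.47-fold under the embryo and was not called. All 6 antagonists and latency proteins expressed in the OEP comparison were lower there than in the embryo, as were 10.2% of all loci. *CHRD* and *FST* passed the expression levels only in the embryo, so neither could be called higher, and that part of the tally was set by the filter. The others were *NBL1* (2.47-fold), *FSTL1* (1.69-fold) and *LTBP1* (1.59-fold). *BMPER*, at 3.91 RPKM in the embryo, missed the expression level and was left out of that count.

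Besides *CHRD*, *FST* and *BAMBI*, the members lower than the embryo at each of 5-6ss, 8-9ss and 11-12ss were *TGFBI*, *SMAD6* and *BMPR-II*. At each of them *CHRD* and *BMPR-II* passed the expression levels only in the embryo, so neither could be called higher. The same held for *FST* at 5-6ss and 8-9ss, for *BAMBI* at 8-9ss and 11-12ss, and for *SMAD6* at 8-9ss. The share of all loci called in the same direction at each of these stages was not computed. *SMAD6* was 2.08-fold lower in the PPR as well (1.95 to 2.20) and 3.03-fold lower at 8-9ss (2.75 to 3.34). *BMPR-II* changed side, being 2.88-fold higher in the PPR (2.66 to 3.11) and 2.52-fold lower at 5-6ss (2.12 to 3.02). *TGFBI* was 3.59-fold lower at 8-9ss (3.31 to 3.90).

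The members higher than the embryo at each of the 3 later otic stages were *BMP7* and *ID3*, again without a share of all loci to set beside them. *BMP7* was 2.66-fold higher at 5-6ss (2.55 to 2.78), 2.89-fold higher at 8-9ss (2.78 to 3.01) and 2.16-fold higher at 11-12ss (2.07 to 2.26), while the PPR and the embryo differed by 1.04-fold. *ID3* was also 1.96-fold higher in the PPR (1.86 to 2.06), and 1.75-, 1.99- and 2.34-fold higher at the later stages. *ID2*, by contrast, was 2.62-fold lower at 5-6ss (2.52 to 2.74) and 1.85-fold lower at 8-9ss (1.79 to 1.91), and it was called at neither end of the series. The ID genes were therefore not uniform against the embryo.

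Several members were called higher in only part of the series. *BMPR1B* was 4.16-fold higher at 5-6ss (3.36 to 5.19). In the PPR, at 8-9ss and at 11-12ss it stood at 2.42, 3.81 and 3.25 RPKM against 1.20 RPKM in the embryo. These values lie under the level of 4 RPKM, so it could not be called higher there. The PPR was 1.94-fold above the embryo (1.60 to 2.37). *BMP4* was 2.28-fold higher in the PPR (2.18 to 2.39) and still 2.11-fold higher in the OEPs (1.98 to 2.24). *TGFB3* was 1.69-fold and *TGFBR3* 1.52-fold higher at 5-6ss. At 11-12ss *TGFBR2* was 3.48-fold higher (2.86 to 4.25) and *NBL1* 2.99-fold higher (2.85 to 3.14), the latter after having been 5.15-fold lower in the PPR (4.81 to 5.52). *SMAD2* was 1.56-fold higher at 8-9ss and 1.55-fold higher at 11-12ss, with counting intervals from 1.43 and 1.42. The calls of *BMPR1B* and *TGFBR2* were lost in thinned counts, and those of *TGFBR3* and *SMAD2* in 3 of the 11 alternatives each.

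Besides *BMP4*, *ID3* and *BMPR-II*, the members higher in the PPR than in the embryo were *BMPR1A* (1.68-fold, 1.58 to 1.79), *SMAD5* (1.55-fold), *SMAD9* (1.58-fold), *SMURF1* (2.104-fold), *SMURF2* (1.66-fold), *BMPER* (2.69-fold) and *BMP2K* (1.51-fold). The call of *SMAD5* was lost in 6 of the 11 alternatives, that of *BMP2K* in 5 and that of *SMAD9* in 4. Fold changes moved with locus length in this comparison too. The length correction ended the calls of *SMAD5*, *SMURF2* and *BMP2K*, and it added *BAMBI* and *LTBP1* as lower. *SMAD1*, *ACVR1*, *ACVR2A* and *ACVR2B* were not called in that comparison, and *SMAD1* differed by 1.13-fold (1.09 to 1.18). *BMP2* was 4.06-fold lower in the PPR than in the embryo (3.63 to 4.53), and *SMAD3* was 1.81-fold lower (1.70 to 1.93).

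The remaining differences from the embryo were smaller. *SMAD3* was lower in the OEPs (1.83-fold, 1.65 to 2.04) and in the thickened placode (1.65-fold, 1.51 to 1.80) as well, and it was not called at 11-12ss. *BMPR1A* was 1.84-fold lower in the OEPs (1.63 to 2.08) after lying above the embryo in the PPR. In the thickened placode *SMURF2* (1.68-fold), *ID1* (1.65-fold) and *SMURF1* (1.52-fold) were lower, and the call of *SMURF1* was lost in 5 of the 11 alternatives. In the invaginating placode *ACVR2B* was 1.71-fold lower (1.58 to 1.84). None of *SMURF1*, *SMURF2*, *ID1*, *SMAD1*, *SMAD5* and *SMAD9* was called against the embryo at that last stage.

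Genes of the pathway that the symbol rule does not cover were followed in 5 lists. Beside the counts of each list stand the shares of all loci called, which were 18% higher and 18.9% lower at the first step, 3.89% and 4.99% at the second, and 6.54% and 3.63% at the third. Of 23 loci for other antagonists and extracellular modulators, 11 were expressed at the first step, where 2 were higher and 4 lower, with a median log2 fold change of -0.65 over the list. The share of higher loci was thus close to that of all loci. *HTRA1*, a secreted protease that inhibits TGF-beta family signals, stood at 112, 6.93, 4.12, 4.26 and 44.8 RPKM and was 18.7-fold lower at 5-6ss than in the PPR. *THBS1*, an activator of latent TGF-beta, was 4.63-fold lower and *FSTL4* 3.78-fold lower. *TLL1*, a protease that cleaves chordin, was 6.81-fold higher, from 1.38 to 11.6 RPKM. At the second step none of 9 was higher and 4 were lower (background 3.89% and 4.99%), and at the third 1 of 9 was higher and 2 were lower (background 6.54% and 3.63%).

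Of 29 loci for intracellular regulators, 27 were expressed at the first step, of which 3 were higher and 10 lower, with a median of -0.29 and background shares of 18% and 18.9%. *SKI*, a nuclear SMAD corepressor, was 2.35-fold lower, *RNF111*, a ligase that relieves SMAD repression, 1.79-fold lower, and *ZNF423*, a SMAD partner in BMP responses, 1.68-fold lower. *CREBBP*, a histone acetyltransferase that SMADs recruit, was 2.25-fold higher. None of 26 was called at the second step. At the third, *ZFYVE9*, which presents SMAD2 and SMAD3 to the receptor, was the only one called of 26, and it was 1.84-fold higher at 11-12ss, where 6.54% of all loci were called higher.

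Of 10 loci for other BMP targets, 9 were expressed at the first step, 4 higher and 4 lower (18% and 18.9% of all loci), with a median of -0.06. *HEY1* (9.30-fold), *DLX3* (6.76-fold), *SP5* (4.67-fold) and *GATA3* (4.29-fold) were higher, and *GATA2* (6.21-fold), *MSX2* (1.97-fold), *DACT1* (1.65-fold) and *DLX5* (1.53-fold) were lower. *GATA3* and *DLX3* belong to the otic marker list as well, and *GATA2* and *DLX5* to a list of surface ectoderm markers. Several of these genes also answer to other signals. *MSX2*, a homeobox gene of the neural plate border, stood at 5.66, 2.29, 0.683, 1.54 and 17.2 RPKM, so that all otic libraries lay under the embryo. At the second step 1 of 8 was higher and 3 were lower (3.89% and 4.99% of all loci), and at the third 2 were higher and 2 lower (6.54% and 3.63%).

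Of 11 loci for TGF-beta, activin and nodal targets, 5 were expressed at the first step, 2 higher (among them *SNAI2*, 2.44-fold) and 2 lower (*COL1A2* 1.62-fold and *FN1* 1.56-fold), with a median of -0.31, beside 18% and 18.9% of all loci. *SNAI2* belongs to a list of neural crest markers as well, of which 3 of 7 symbols were found. That list summed to 19.0 RPKM in the PPR and to 40.9 RPKM at 5-6ss. The part of neural crest cells in the *SNAI2* values was not tested. *FN1*, fibronectin, stood at 569.6 RPKM in the PPR and at 149.9 RPKM at 11-12ss. At the second step none of 4 was higher and 2 were lower (3.89% and 4.99% of all loci), and at the third 1 of 4 was higher and none was lower (6.54% and 3.63%). Of 8 other ligand and co-receptor loci 5 were expressed, and the co-receptor *ENG* (2.98-fold) and *ROR2* (1.94-fold) were higher at 5-6ss, as were 18% of all loci. *CFC1*, a nodal co-receptor, was the only one of these called at a later step and was 1.63-fold lower at 11-12ss than at 8-9ss.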

How the data were processed

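PolyA RNA of 5 chick tissues, 1 library each, was sequenced after TruSeq V2 library preparation. The authors aligned the reads with TopHat2 to galGal4 (per the labels' processing notes), assembled and merged transcripts with Cufflinks, and deposited raw counts of reads per locus from easyRNAseq, without normalization. The deposited RPKM values come from Cuffdiff, which corrects for transcript length and depth. In all, 18365 loci have counts and 18581 have RPKM.

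Symbols were matched to the rule in upper case; 53 of the 54 members matched by the symbol in the count table and the other by that in the RPKM table. The members, gene lists, thresholds and comparisons were chosen with earlier results of these data known. For each of 7 comparisons, size factors (median of ratios over both libraries) normalized the counts. A locus was called when the fold change exceeded 1.5 with RPKM above 4 and normalized counts above 300 in the higher library. Counts under 3 were raised to 3. Fold changes carry the exact 95% binomial interval of the 2 counts, which covers counting error only. No test was run, since no group has a replicate. Medians used loci that averaged 10 or more normalized counts.

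Every member was accounted for. Values in all libraries were printed for members called in at least 1 step or in at least 2 comparisons with the embryo, and ranges or counts for most others.

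The alternatives were size factors over 5 libraries, TMM (edgeR 4.0.16), total count scaling, RPKM fold changes (pseudocount 0.1), no RPKM threshold, no count threshold, a mean count over 100, a 2-fold threshold, an interval wholly past 1.5, counts thinned to the smallest library, and a correction for locus length that was chosen after seeing the data. Neighbouring genes were looked up in RefSeq by symbol (51 matched). The calling was tested on simulated data. Software was R 4.3.3 and Python 3.11.15 with scipy 1.17.1, pandas 2.3.3, numpy 2.4.6 and matplotlib 3.10.9.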

Additional observations from a re-analysis of the deposited data

How the results depend on the processing

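No called fold change of a member changed direction under another scaling or with deposited RPKM, and of the 480 values of called members 409 stayed within their counting interval and 71 moved. Some that were not called did change direction with deposited RPKM, such as *BMP6* at the first step (1.30-fold lower by counts and 1.10-fold higher by RPKM) and *ACVR1C* (3.59-fold higher by counts and 1.67-fold lower by RPKM). Counts of called members moved as follows. At 8-9ss against 5-6ss, a mean count threshold gave 2 higher and 5 lower members in place of 1 and 3, and a fold change over 2 or an interval wholly past 1.5 gave 1 lower. At 11-12ss against 8-9ss, no RPKM threshold or a mean count threshold gave 2 lower in place of 1, a fold change over 2 gave 3 higher and 0 lower in place of 8 and 1, and an interval wholly past 1.5 gave 4 higher (*FST*, *NBL1*, *TGFBR2* and *LTBP1*). Against the embryo, a mean count threshold gave 12 lower in the PPR in place of 7 and 5 higher at 8-9ss in place of 3. A fold change over 2 gave 4 higher in the PPR in place of 10, 3 higher and 7 lower at 5-6ss in place of 6 and 12, and 1 higher and 6 lower at 8-9ss in place of 3 and 12. The other counts, 57 between stages and 81 against the embryo, stayed within 1.5 times their main value, those with the length correction included, which was chosen after seeing the data. Of the medians 11 moved and 129 did not.

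No paired analysis was possible because each group has 1 library, and no replicate was left out for the same reason. The calls of *SMAD9*, *BMPR1B* and *SMAD7A* at the first step and of *TGFBR2* at the last were lost in thinned libraries. Thinning left the 5-6ss counts as they were, since that library is the smallest. The level of 300 normalized counts is fixed, while normalized counts scale with the pair of libraries compared. The 280 counts of *BMPR1B* at 5-6ss became 640 beside the PPR and 346 beside 8-9ss. For *SMAD7A*, 176 counts became 402 and 217 in the same pairs. Whether the calls ended through the count level or through a changed fold change was not tested. Against the embryo thinning ended the calls of *SMAD9* and *SMAD5* in the PPR, *BMPR1B* at 5-6ss, *SMURF1* at 8-9ss and *TGFBR2* at 11-12ss.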

Other observations

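Some members below the expression thresholds had their own stage pattern, given here as values. *BMP3* had 259, 214, 105, 38 and 40 counts in the PPR, 5-6ss, 8-9ss, 11-12ss and whole embryo libraries. Relative to library size this is a peak in the OEPs, 4.31-fold above the PPR (3.58 to 5.19) and 3.11-fold above 8-9ss (2.45 to 3.97). *INHBB* had 5 counts in the OEPs and 68 in the thickened placode, which is 8.91-fold after normalization with a wide counting interval (3.63 to 28.3). *NODAL* had 22 counts at 5-6ss, 3 at 8-9ss and 2 at 11-12ss.

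*ACVRL1*, the type I receptor of endothelial cells, stood at 0.954, 0.468, 0.787, 1.64 and 0.821 RPKM. It had 71 counts at 8-9ss and 116 at 11-12ss, 1.84-fold higher (1.36 to 2.51), but the PPR lay above 5-6ss and 8-9ss. *ENG*, an endothelial co-receptor of the same branch, stood at 2.04, 6.09, 5.48, 5.22 and 3.05 RPKM. The endothelial markers *CDH5* and *CLDN5* stood at 3.18 and 5.15 RPKM at 11-12ss and at 0.0852 and 0.119 RPKM in the PPR. Unlike these markers, *ENG* did not climb after 5-6ss. The part of endothelial cells in the values of *ACVRL1* and *ENG* was not tested.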
